A study of Homo sapiens with 9 samples.

Results

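DHX34 and UPF1 were the genes targeted by siRNA in this series, and their RNA was examined transcript by transcript in every library. They were chosen as the targets of the knockdowns, whatever their measured level, and they make up 2 of the 58214 genes with a transcript in the tables. All of their transcripts that the authors quantified were taken, 4 of DHX34 and 13 of UPF1, or 17 of 203027. The questions were which isoforms were lower after each siRNA, which were not, and how each gene responded to loss of the other.

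The cells were K562, a human line from a chronic myelogenous leukaemia in blast crisis that carries BCR-ABL and has an erythroid character. Poly(A)-selected RNA was sequenced from 9 libraries, 3 per group, all taken on day 4 after the first transfection. The study's methods describe another transfection on day 3, with a larger amount of the same siRNAs, after the cells had been moved to larger plates. SCR received a non-targeting siRNA pool, DHX34 kd a pool of siRNAs against DHX34, and UPF1 kd siRNAs against UPF1. No group was left untransfected, all cells came from the same line in standard medium, and loss of the proteins was not measured in these files. The study's methods call the replicates biological, and the labels number them from 1 to 3.

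UPF1 is an ATP-dependent RNA helicase and the central factor of nonsense-mediated decay (NMD), the pathway that destroys mRNAs on which ribosomes stop too early, typically upstream of an exon junction complex. The kinase SMG1 phosphorylates UPF1, and phosphorylated UPF1 recruits factors such as SMG5 and SMG6, which bring about cleavage or decay of the mRNA. DHX34 is a DEAH-box helicase that binds SMG1 and UPF1 and promotes that phosphorylation. A poison exon is an alternative exon that carries an in-frame stop codon, so that its inclusion sends the mRNA towards NMD in place of protein.

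The annotation used here was GENCODE release 44 on GRCh38, and both genes lie on the plus strand of chromosome 19. DHX34-201, the coding transcript, spans chr19:47349315-47382704 in 17 exons. DHX34-202 is annotated as an NMD target, has 11 exons, begins in exon 8 of DHX34-201 and carries the extra exon 12b between exons 12 and 13. Its model holds a stop codon but no annotated start codon. DHX34-204 is a retained-intron transcript, and DHX34-203 is a short one whose coding sequence is not defined. UPF1-201 and UPF1-207, both coding, span chr19:18831959-18868230 and chr19:18832001-18868229 in 24 exons each.

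The sequences that separate these isoforms are short. Exon 12b of DHX34 is 75 bases long at chr19:47376915-47376989, and the capitals mark its in-frame stop codon at chr19:47376965-47376967, bases 51 to 53 of the exon. In DHX34-202 that stop lies 721 bases before the last exon junction and is followed by 5 junctions in all. Exon 7 of UPF1-207 is 118 bases long at chr19:18852987-18853104, and the capitals mark the last 33 bases, 11 codons, which UPF1-201 lacks because an upstream 5′ splice site is used. These codons lengthen the regulatory loop in domain 1B of the helicase, so UPF1-207 is the long-loop form. Both sequences were read from the reference genome.
DHX34 exon 12b: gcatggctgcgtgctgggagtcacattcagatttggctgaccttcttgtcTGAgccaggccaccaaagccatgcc
UPF1 exon 7 long form: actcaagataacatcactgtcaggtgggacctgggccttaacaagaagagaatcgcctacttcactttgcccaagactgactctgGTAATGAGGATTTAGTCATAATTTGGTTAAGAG

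The study's RT-PCR primers were matched to these transcript models. The DHX34 pair lies in exons 3 and 4 and matched DHX34-201 alone among the DHX34 models. The DHX34-202 model begins in exon 8, so whether RNA with exon 12b also holds exons 3 and 4 cannot be told from it.
DHX34 fwd: tttcagcaatgcccctgt
DHX34 rev: ctcctgcggctggtacac
The exon 12 pair flanks exon 12b, with its primers in exons 12 and 13 of DHX34-201, and matched DHX34-201, DHX34-202 and DHX34-204.
DHX34 ex12 F: tttccacacgcaggccaagcagggcg
DHX34 ex12 R: cagggatgcggacgcagttcaccagg
The UPF1 pair lies in exons 17 and 18 and matched UPF1-201, UPF1-207 and UPF1-204 among the transcripts tested, and also UPF1-203 and UPF1-213 as GENCODE models them, so it does not separate the long-loop form from the short one.
UPF1 fwd: cctgcacaccaagctctacc
UPF1 rev: ttctcgcgtccctgaaag

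Libraries held between 73478797 and 103625443 expected counts. These are the reads that salmon assigned to each transcript, which need not be whole numbers. The 8 K562 marker genes, among them GATA1, TAL1, KLF1 and the globin HBG2, were all above 1 TPM in every library. Their summed level ran from 23742 to 25322 TPM in SCR, 21332 to 23532 in DHX34 kd and 14247 to 15453 in UPF1 kd. Of 5 markers of other cell types (CD3E, MPO, ALB, COL1A1 and KRT5) none was above that level in every library, MPO, ALB and KRT5 were listed at 0 in at least 1 library, and the sum was 0.16 to 0.45 TPM in SCR, 1.02 to 1.25 in DHX34 kd and 0.20 to 0.27 in UPF1 kd. The part of these marker shifts in the results was not tested. Replicate 3 of DHX34 kd stood apart from its group, with a mean chi-square per gene of 25.0 and 19.4 against replicates 1 and 2, where the other pairs of replicates gave 5.11 to 8.83. Values without it are given beside the results that it moves most.

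The siRNA against DHX34 lowered DHX34 to 42.6% of its SCR level, and the loss was measured on the coding transcript. The siRNA sequences were not used here, so which transcripts they can target was not checked. Levels between groups, this 42.6% among them, are given as CPM, the counts scaled to a library of common size after TMM normalization. CPM values are not corrected for length. In TPM, which is corrected for transcript length, DHX34 in DHX34 kd was at 53.5% of its SCR level. DHX34 stood at 70.9, 72.6 and 73.1 CPM in SCR, and at 29.5, 29.5 and 33.3 CPM in DHX34 kd. The groups did not overlap, as was so for 20% of all genes in this direction, and the highest knockdown library was replicate 3. The log2 fold change was -1.23 (SE 0.05, 95% interval -1.34 to -1.12, n = 3 and 3), with an adjusted p of 3.33e-07 in edgeR's quasi-likelihood test. Without replicate 3 it was -1.29, and with length-scaled counts of all libraries it was -1.07. DHX34 ranked 2nd by p-value and 92nd from the lowest by log2 fold change among 17004 genes tested, where 4.86% of genes were called lower at an adjusted p of at most 0.005. In bulk RNA, fewer cells carrying the transcript and less RNA per cell cannot be told apart.

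DHX34-201 carried this fall. It stood at 65.2, 66.5 and 69.0 CPM in SCR and at 24.4, 23.8 and 28.0 CPM in DHX34 kd, with no overlap, where 11.3% of all transcripts were lower without overlap. The log2 fold change was -1.41 (SE 0.07, 95% interval -1.58 to -1.24), with an adjusted p of 0.00415 in edgeR over 61542 transcripts, of which 0.013% were called lower. Leaving out any 1 of the 6 libraries kept the log2 fold change between -1.47 and -1.37 but put the adjusted p between 0.0155 and 0.0375, above the limit of 0.005, and no transcript of any gene was called in those fits.

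No fall was called for DHX34-202, the exon 12b transcript. It stood at 5.07, 5.26 and 3.66 CPM in SCR and at 4.50, 4.83 and 4.08 CPM in DHX34 kd. The groups overlapped, and the log2 fold change was -0.07 (SE 0.18, 95% interval -0.50 to 0.37, adjusted p = 0.926 in edgeR). It was 0.0021 without replicate 3 of DHX34 kd and -0.21 without SCR replicate 3. That SCR library, at 3.66 CPM, lay below every knockdown library, while the other SCR libraries lay above them all. The interval of -0.50 to 0.37 lies wholly above the interval of DHX34-201. The retained-intron transcript DHX34-204 was low, at 0.65, 0.79 and 0.41 CPM in SCR and 0.58, 0.88 and 1.18 CPM in DHX34 kd, and gave a log2 fold change of 0.50 (95% interval -0.46 to 1.46, adjusted p = 0.673 in edgeR), or 0.25 without replicate 3 of DHX34 kd and 0.29 without SCR replicate 3. DHX34-203 did not pass the count filter and held at most 8.15 expected counts in any library.

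**Figure D1:**
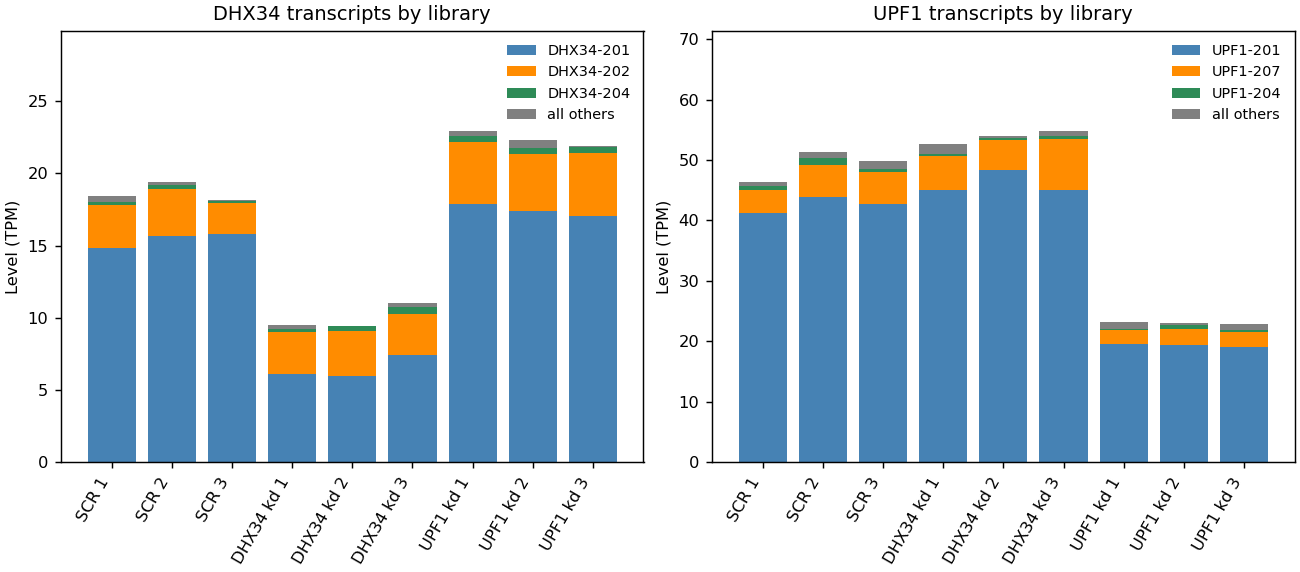
Level in TPM (a transcript level corrected for length) of DHX34 transcripts (left) and UPF1 transcripts (right), stacked by library for SCR, DHX34 kd and UPF1 kd. Segments show DHX34-201, DHX34-202 and DHX34-204, and UPF1-201, UPF1-207 and UPF1-204, with the remaining transcripts of each gene pooled as all others. The DHX34-201 segment shrinks from 14.8 to 15.8 TPM in SCR to 5.95 to 7.44 TPM in DHX34 kd. The DHX34-202 segment is 2.17 to 3.21 TPM in SCR, lowest in replicate 3, and 2.80 to 3.11 TPM in DHX34 kd. In UPF1 kd both UPF1-201 and UPF1-207 shrink.

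The make-up of DHX34 RNA was then compared within libraries. TPM is corrected for transcript length and was used for shares within a library. DHX34-201 stood at 14.8, 15.7 and 15.8 TPM in SCR and at 6.11, 5.95 and 7.44 TPM in DHX34 kd, and DHX34-202 at 2.99, 3.21 and 2.17 TPM in SCR and 2.90, 3.11 and 2.80 TPM in DHX34 kd. The coding transcript was the most abundant form in every library, with a smaller lead over the exon 12b form in DHX34 kd. As a log2 ratio of TPM, DHX34-202 to DHX34-201 stood at -2.49 ± 0.32 (SD, n = 3) in SCR and -1.14 ± 0.24 in DHX34 kd.

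Exon 12b inclusion was taken as the TPM of DHX34-202 as a percentage of DHX34-201 and DHX34-202 together. Reads across the junctions of exon 12b were not counted. The DHX34-202 model begins in exon 8, so reads from earlier exons could not be assigned to it, whatever RNA they came from. Inclusion was 16.8%, 17.0% and 12.1% in SCR. In DHX34 kd it was 32.2%, 34.4% and 27.4%. Every knockdown library lay above every SCR library, the means being 15.3% ± 2.76 and 31.3% ± 3.59 (SD, n = 3 each). The difference of 16.0 percentage points had an exact two-sided permutation p of 0.1, the smallest that 3 against 3 libraries can give. It was 18.0 points without replicate 3 of DHX34 kd and 14.4 points without SCR replicate 3. With expected counts in place of TPM, which weight DHX34-201 by its greater length, the difference was 8.53 points.

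The share of DHX34 TPM from the coding transcript mirrored this, at 80.6%, 80.8% and 86.9% in SCR and 64.3%, 63.3% and 67.3% in DHX34 kd (exact permutation p = 0.1, two-sided). The share from DHX34-204 was 1.24%, 1.49% and 0.81% in SCR and 2.38%, 3.61% and 4.39% in DHX34 kd. The shares of DHX34-202 and DHX34-204 were both higher without overlap, and that of DHX34-203 overlapped, where 9.54% of all transcripts tested had a share that was higher without overlap and 8.07% one that was lower. The test of transcript usage across all genes gave DHX34 an unadjusted p of 0.0181 and an adjusted p of 0.325 (edgeR diffSpliceDGE), so no change in usage was called. That test called 3.55% of genes. With limma on the transcript shares the adjusted p was 0.0815.

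The share values rest on how salmon divided reads between overlapping transcripts. Of the 31-base words in DHX34-202, 3.15% occur in no other DHX34 transcript, against 50.6% in DHX34-201, whose first exons are its own. For UPF1 the isoforms are closer still, with 0.81% of words in UPF1-201 and 1.17% in UPF1-207 found in no other UPF1 transcript. UPF1-203 and UPF1-213 were left out of that count because their models in the tables are far shorter, while the small length differences of DHX34-201 and UPF1-201 were accepted.

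**Figure D2:**
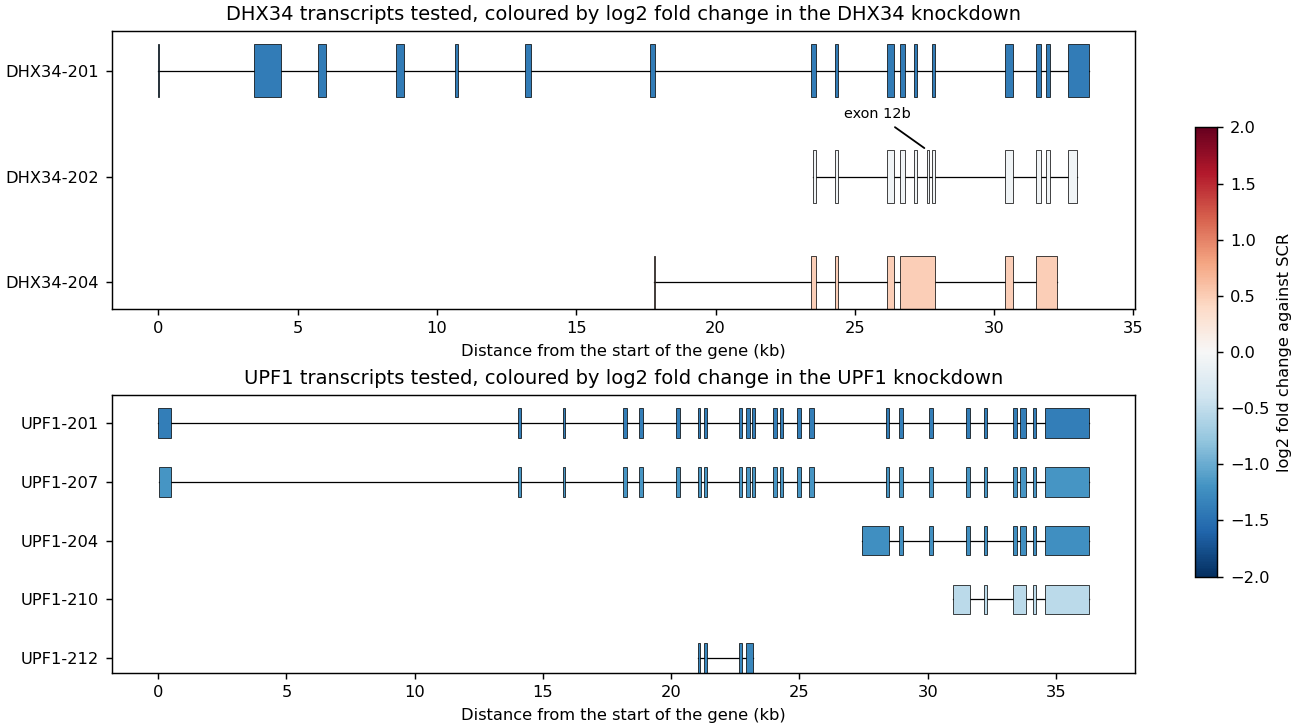
Exon structure of the DHX34 transcripts tested (top) and the UPF1 transcripts tested (bottom), as distance in kb from the gene start. Boxes are exons coloured by the log2 fold change against SCR in the knockdown of that gene. DHX34-201 is blue (-1.41) while DHX34-202, which lacks the first exons and holds exon 12b, is near white (-0.07), and the UPF1 transcripts are all blue.

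The siRNA against UPF1 lowered UPF1 to 40.4% of its SCR level, and here both coding isoforms fell. UPF1 stood at 246.9, 260.9 and 261.1 CPM in SCR and at 102.8, 105.4 and 102.6 CPM in UPF1 kd. The groups did not overlap, as was so for 23.6% of all genes in this direction, and the knockdown libraries lay close together. The log2 fold change was -1.31 (SE 0.03, 95% interval -1.38 to -1.25, adjusted p = 2.41e-10 in edgeR), and UPF1 ranked 2nd by p-value and 110th from the lowest by log2 fold change among 17184 genes. In that comparison 12.9% of genes were called lower.

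UPF1-201, the short-loop and main form, stood at 222.4, 229.1 and 230.0 CPM in SCR and at 90.5, 90.6 and 89.2 CPM in UPF1 kd. Its log2 fold change was -1.39 (SE 0.03, 95% interval -1.45 to -1.33, adjusted p = 7.87e-05 in edgeR). UPF1-207, the long-loop form, stood at 21.0, 27.4 and 28.5 CPM in SCR and at 10.7, 12.8 and 11.7 CPM in UPF1 kd, again with no overlap, where 12% of all transcripts were lower without overlap. Its log2 fold change was -1.18 (SE 0.13, 95% interval -1.50 to -0.86, adjusted p = 0.00423). These 2 transcripts were called among 63657 tested, of which 1.59% were called lower. Without any 1 of the 6 libraries UPF1-207 kept a log2 fold change between -1.32 and -1.10, with adjusted p between 0.00853 and 0.0272, so its call was lost, while UPF1-201 was called in each of those fits.

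The 3 retained-intron transcripts of UPF1 that passed the count filter had wide intervals. UPF1-204 stood at 2.39, 3.87 and 1.82 CPM in SCR and 0.80, 1.76 and 1.02 CPM in UPF1 kd, with a log2 fold change of -1.23 (95% interval -2.22 to -0.24, adjusted p = 0.134 in edgeR). UPF1-210 gave -0.54 (95% interval -2.23 to 1.16) and UPF1-212 -1.31 (95% interval -2.91 to 0.30). None of the 3 was called, and each estimate was below 0. The other 8 UPF1 transcripts did not pass the count filter: UPF1-211 and UPF1-213 were listed at 0 in all 9 libraries, UPF1-203, UPF1-205, UPF1-206 and UPF1-209 in 8, UPF1-208 in 4 and UPF1-202 in 1, where the highest count of any of them was 13.2.

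The shares of the UPF1 isoforms in UPF1 kd were then compared with SCR. UPF1-201 made up 88.8%, 85.4% and 85.6% of UPF1 TPM in SCR and 84.0%, 84.0% and 83.3% in UPF1 kd, lower without overlap with a difference of -2.85 percentage points (exact two-sided permutation p = 0.1, the smallest possible), as were 10.1% of all transcript shares. UPF1-202, below the count filter, held at most 0.56% in SCR and 0.58% to 1.40% in UPF1 kd. The long-loop share, UPF1-207 over the transcripts that cover the end of exon 7, was 8.61%, 10.6% and 10.9% in SCR and 10.4%, 12.3% and 11.6% in UPF1 kd. The groups overlapped, and the difference of 1.40 percentage points had an exact two-sided permutation p of 0.3. The coding share of UPF1 TPM was 96.4% ± 0.76 in SCR and 94.7% ± 1.05 in UPF1 kd (SD, n = 3 each, exact permutation p = 0.2, two-sided). The usage test gave UPF1 an adjusted p of 1.0 in edgeR, in a comparison where 6.28% of genes were called.

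**Figure D3:**
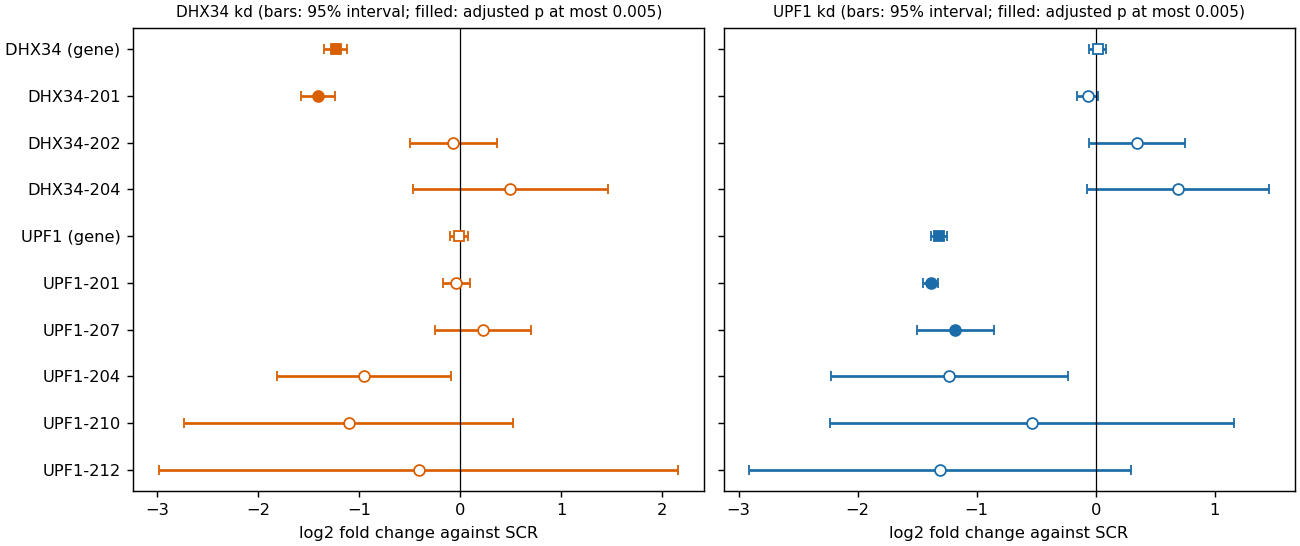
Log2 fold change against SCR of DHX34, UPF1 and their tested transcripts in DHX34 kd (left) and UPF1 kd (right), with 95% intervals. Squares are genes, circles transcripts and filled symbols an adjusted p of at most 0.005, and each gene is filled in its own knockdown alone, with DHX34-201 in DHX34 kd and UPF1-201 and UPF1-207 in UPF1 kd.

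UPF1 did not measurably respond to loss of DHX34 in the count test. It stood at 250.9, 263.4 and 250.2 CPM in DHX34 kd, inside the range of 246.9 to 261.1 CPM in SCR apart from replicate 2. The log2 fold change was -0.01, with a 95% interval of -0.10 to 0.08 and an adjusted p of 0.886 in edgeR. In this comparison 10.4% of genes were called. In TPM, UPF1 stood at 46.4, 51.4 and 49.9 in SCR and at 52.7, 54.0 and 54.9 in DHX34 kd. Limma on log2(TPM + 0.5) gave 0.13 (adjusted p = 0.0724), where the median gene was itself 0.13 higher. With each library centred on its median, limma gave -0.0028 (adjusted p = 0.969). UPF1-201 stood at 221.5, 237.6 and 209.0 CPM and gave -0.04 (95% interval -0.17 to 0.10), and none of the 5 UPF1 transcripts tested was called, where 0.0471% of all transcripts were.

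Among these, UPF1-204 stood at 1.41, 1.00 and 1.79 CPM in DHX34 kd, below its 1.82 to 3.87 CPM in SCR, as were 11.3% of all transcripts, though the groups overlapped in TPM. It gave a log2 fold change of -0.95 (95% interval -1.81 to -0.09) with an unadjusted p of 0.0355 and an adjusted p of 0.275 in edgeR, and -0.60 without SCR replicate 2. The long-loop form UPF1-207 stood at 27.4, 24.5 and 38.9 CPM, replicate 3 being the highest, with a log2 fold change of 0.23 (95% interval -0.25 to 0.71) that was 0.02 without replicate 3. The long-loop share was 10.8%, 9.41% and 15.7%, or 1.95 percentage points above SCR (exact two-sided permutation p = 0.5), and 0.07 points above it without replicate 3. The coding share of UPF1 was 97.4% ± 1.33 (SD, n = 3, exact permutation p = 0.3, two-sided).

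DHX34 as a gene did not measurably respond to loss of UPF1 in the count test. It stood at 74.8, 73.3 and 72.1 CPM in UPF1 kd, overlapping the 70.9 to 73.1 CPM of SCR, with a log2 fold change of 0.02 (95% interval -0.06 to 0.09, adjusted p = 0.754 in edgeR). In this comparison 25.3% of genes were called. On the TPM scale the answer differed, at 18.4, 19.4 and 18.2 TPM in SCR and 23.0, 22.3 and 21.9 TPM in UPF1 kd. Limma on log2(TPM + 0.5) gave 0.26 (adjusted p = 0.00363). On that scale the median gene was itself 0.17 higher in UPF1 kd and 0.13 higher in DHX34 kd, and with each library centred on its median DHX34 gave 0.09 (adjusted p = 0.141).

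DHX34-201 stood at 67.5, 66.3 and 64.7 CPM in UPF1 kd, and its log2 fold change was -0.07 (95% interval -0.16 to 0.02, adjusted p = 0.346 in edgeR). The exon 12b transcript DHX34-202 stood at 6.28, 5.80 and 6.40 CPM, above its 3.66 to 5.26 CPM in SCR without overlap, but with a log2 fold change of 0.35 (SE 0.17, 95% interval -0.05 to 0.75) its adjusted p was 0.293, and the log2 fold change was 0.20 without SCR replicate 3. DHX34-204 likewise stood at 1.01, 1.09 and 1.00 CPM, above its 0.41 to 0.79 CPM in SCR, with 0.69 (95% interval -0.07 to 1.45, adjusted p = 0.270). Groups higher without overlap made up 19.8% of all transcripts tested here. None of the 3 DHX34 transcripts tested was called, where 2.54% of all transcripts were.

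Exon 12b inclusion in UPF1 kd was 19.3%, 18.4% and 20.4%, each above the highest SCR library at 17.0%. The difference in means was 4.09 percentage points (exact two-sided permutation p = 0.1, the smallest possible), against 16.0 points in DHX34 kd, and both differences are taken against the same SCR libraries. SCR replicate 3 had the lowest inclusion of all, and without it the UPF1 kd difference was 2.50 points. With expected counts in place of TPM it was 1.99 points. The coding share of DHX34 was 78.0%, 78.1% and 77.7%, below SCR by 4.80 points, or by 2.72 points without SCR replicate 3. Shares higher without overlap were seen for 14.6% of all transcripts tested and lower ones for 10.1%, and the usage test for DHX34 gave an adjusted p of 1.0 in edgeR.

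**Figure D4:**
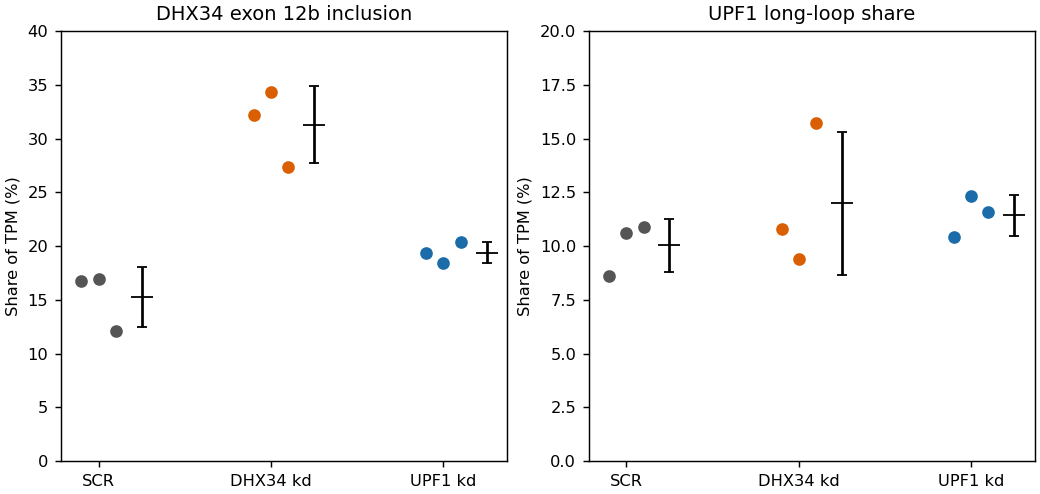
DHX34 exon 12b inclusion (left) and UPF1 long-loop share (right) as a percentage of TPM, with 1 point per library and the mean ± SD of the 3 libraries beside each group. Exon 12b inclusion is 12.1% to 17.0% in SCR, 27.4% to 34.4% in DHX34 kd and 18.4% to 20.4% in UPF1 kd, while the long-loop shares of the 3 groups overlap.

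The pathway partners of the targeted genes were followed in a list of 19 genes, all of which passed the count filter. In DHX34 kd edgeR with the count filter called none of the 9 NMD factors. Their log2 fold changes lay between -0.17 and 0.21, with a median of 0.04, beside 0.02 over all genes. DESeq2 called 2 of them lower, NBAS (-0.17, adjusted p = 0.00076) and SMG9 (-0.16, adjusted p = 0.0033). Without the count filter edgeR called SMG1 higher (0.21, adjusted p = 2.4e-05) and NBAS lower (-0.16, adjusted p = 0.00156). In UPF1 kd 7 of the 9 rose and none fell, with a median of 0.24 beside 0.02 over all genes, where 12.4% of genes were called higher. SMG1, the kinase of UPF1, rose by 0.62 (SE 0.05, adjusted p = 1.16e-06 in edgeR) and UPF2, which binds UPF1 and links it to the exon junction complex, by 0.51 (SE 0.04, adjusted p = 2.80e-06). The others that rose were SMG5, SMG6, SMG9, UPF3A and UPF3B. SMG1 has near-identical pseudogene copies between which reads can be split, so its value is uncertain.

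Of the 8 termination and exon junction partners, 2 fell in DHX34 kd, where 4.86% of all genes were called lower. Both are subunits of the exon junction complex core. RBM8A fell by 0.24 on the log2 scale (SE 0.03, adjusted p = 0.000557 in edgeR) and MAGOH fell by 0.23 (SE 0.04, adjusted p = 0.00126). This count became 1 without SCR replicate 1, without SCR replicate 3 or without DHX34 kd replicate 1. No gene of the 19 was called higher with the count filter, where 5.54% of all genes were. In UPF1 kd, where 12.9% of all genes were called lower, MAGOH fell by 0.24 (SE 0.03, adjusted p = 7.76e-05) and the release factor gene GSPT1 fell by 0.12, while CASC3, another exon junction protein, rose by 0.28. MAGOH and MAGOHB are near-identical copies, so their split of reads is uncertain. RUVBL1 and RUVBL2 are AAA ATPases that assemble complexes of kinases of the SMG1 family. In UPF1 kd they fell by 0.23 (SE 0.03, adjusted p = 9.90e-05 in edgeR) and 0.22. In DHX34 kd they gave -0.15 and -0.22, and edgeR with the count filter called neither (adjusted p = 0.0159 and 0.00533). DESeq2 called both (adjusted p = 0.00192 and 8.91e-06), and edgeR without the count filter called RUVBL2 (adjusted p = 7.26e-06). Whether any of these genes differed between the knockdowns was not tested.

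**Figure D5:**
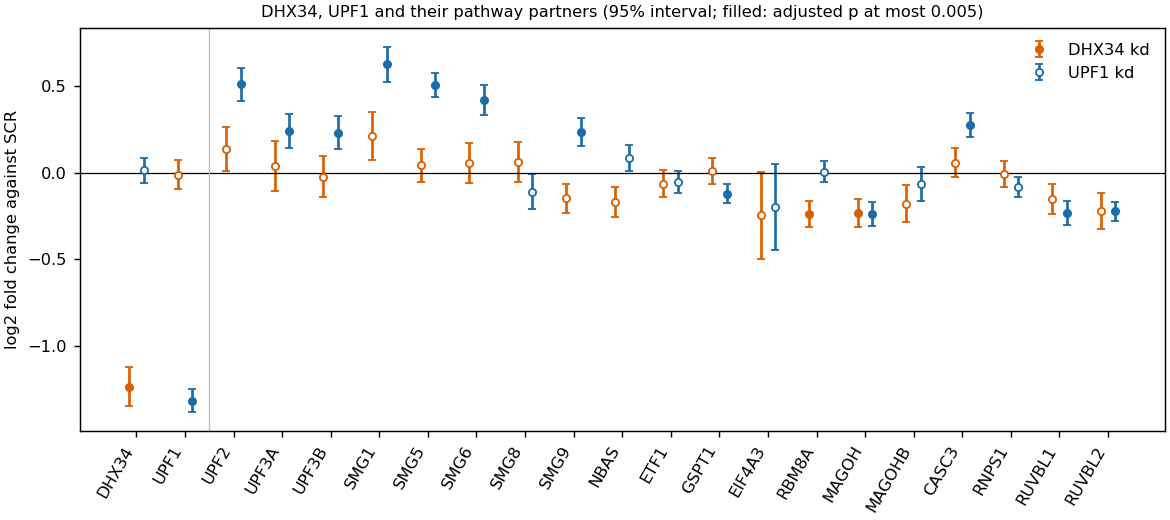
Log2 fold change against SCR of DHX34, UPF1 (left of the grey line) and 19 pathway partners in DHX34 kd (orange) and UPF1 kd (blue), with 95% intervals and filled symbols for an adjusted p of at most 0.005. Each target sits below -1.2 in its own knockdown and near 0 in the other, and 7 of 9 NMD factors lie above 0 with filled symbols in UPF1 kd.

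The genes whose profiles over the 9 libraries were most like those of DHX34 and UPF1 were found among 10025 genes by the root mean square difference of log2 CPM from the SCR mean. For DHX34 they were VWA5A (0.26), ALDH1A1 (0.26) and FN1 (0.27), where the median gene had 0.72. VWA5A gave mean log2 differences of -0.84 in DHX34 kd and -0.13 in UPF1 kd. For UPF1 they were IL2RG (0.14), TMEM158 (0.19) and CKMT1B (0.20), where the median gene had 0.76. IL2RG gave -0.02 in DHX34 kd and -1.16 in UPF1 kd. CKMT1B has a near-identical copy, so its reads can be split.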

How the data were processed

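The authors quantified poly(A) RNA-seq with salmon 1.5.2 against Ensembl 93 transcripts (GRCh38), with GC correction, and deposited expected counts and TPM per transcript for each library. The authors' deposited tables of their own comparisons hold fold effects, p-values and splicing changes and were not used. Transcript identifiers were joined to GENCODE 44 (97.9% matched, of which 85.8% had the same length). Models differed for DHX34-201, UPF1-201, UPF1-203 and UPF1-213. Counts were rounded, summed by gene for gene tests, and each knockdown was compared with SCR in edgeR 4.0.16 (quasi-likelihood test, TMM, filterByExpr with a minimum count of 10, Benjamini-Hochberg adjustment over all features, calls at 0.005) and diffSpliceDGE (calls at 0.05). The adjusted p-values and SE are edgeR's unless limma is named. Shares were compared by exact permutation with SciPy 1.17.1. limma 3.58.1 and DESeq2 1.42.0 served as alternatives, with R 4.3.3. The fits were tested on simulated data. A count of 0 allows up to 3 counts per library, which covers counting error only.

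All 17 transcripts were accounted for, and those passing the filter (8) were described one by one. From the pathway list the 2 called genes with the largest rise and the 2 with the largest fall per knockdown were named with statistics, and 3 most alike genes each (from those of at least 5 CPM). Some genes of the pathway and marker lists are not reported here. The members and lists were chosen with earlier results of these data known.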

Additional observations from a re-analysis of the deposited data

How the results depend on the processing

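The fall of DHX34 in DHX34 kd (-1.29 to -0.84 on the log2 scale over 14 alternatives) and of UPF1 in UPF1 kd (-1.35 to -1.06 over 14) kept direction and call throughout. The 1 DHX34 transcript called in DHX34 kd became 0 with the replicate block and 0 in every fit that left out a replicate. The 2 UPF1 transcripts called in UPF1 kd became 0 with the replicate block (UPF1-201 then had an adjusted p of 0.0104), 1 in every fit that left out a replicate, and 1 with limma on log2(TPM + 0.5), log2(TPM + 1) or the median-centred form, which was added after seeing the data. DHX34 in UPF1 kd was 0.26 and 0.25 with limma on log2(TPM + 0.5) and log2(TPM + 1), both past the threshold.

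The sign of some uncalled values changed: UPF1 in DHX34 kd was 0.13 with limma on log2(TPM + 0.5) and 0.13 on log2(TPM + 1), and -0.0383 to 0.00858 leaving out a replicate. DHX34 in UPF1 kd was -0.0025 to 0.0284 leaving out a replicate. In DHX34 kd, DHX34-202 was 0.0781 and 0.0664 with those limma settings and -0.21 to 0.0242 leaving out a replicate, UPF1-201 was 0.11 and 0.11 and -0.10 to 0.0176, and UPF1-212 was -2.44 to 0.0757 leaving out a replicate. In UPF1 kd, DHX34-201 was 0.17 and 0.17 with limma, and UPF1-210 was -0.84 to 0.32 leaving out a replicate. The cause was not tested.

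With expected counts in place of TPM, the difference in exon 12b inclusion in DHX34 kd was 8.53 points, in DHX34 coding share -10.2 points, and in UPF1 coding share in UPF1 kd -0.36 points, or -0.14 points with transcripts of at least 0.5 TPM. Of the pathway genes, 2 fell in DHX34 kd, 6 by DESeq2 (with NBAS, SMG9, RUVBL1 and RUVBL2 added), 7 at an adjusted p of at most 0.05, 1 with the replicate block and 1 to 3 leaving out a replicate. None rose in DHX34 kd, but 1 did at 0.05, and 8 rose in UPF1 kd, or 5 with the median-centred limma fit. These counts were not made without the count filter, with length-scaled counts or with limma that was not median-centred. Without the count filter edgeR called SMG1 higher in DHX34 kd (0.21, adjusted p = 2.4e-05). That fit called RBM8A, MAGOH, RUVBL2 and NBAS lower.

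The replicate numbers did not pair the samples: correlations of same-numbered libraries ran from -0.09 to 0.08, and not every library was closest to its own number. With the replicate block as a term, 1007 genes were called in DHX34 kd against 1768, 4345 in UPF1 kd either way, and 0 transcripts in both against 29 and 1614.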
